A study of Mus musculus with 4 samples.

Results

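Kinesins are motor proteins that use ATP to walk along microtubules or to take them apart, and CENP proteins build the centromere, the chromosome region that holds the kinetochore. The genes described here were all those on a mouse expression array whose symbol is Kif followed by a number or Cenp followed by a letter. They were found through the RefSeq accession of each probe. The array held 58 of them among 20280 named genes, 37 kinesins and 21 Cenp genes, out of 62 such symbols in the annotation. Of the 58, 49 gave a signal that could be tested.

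The study compared a pair of subpopulations of lymphoid-primed multipotent progenitors (LMPP), early blood progenitors that keep lymphoid and myeloid potential. Both came from the bone marrow of mice carrying an IRF8-GFP knockin, in which green fluorescent protein reports IRF8, a transcription factor needed for monocyte and dendritic cell development. Cells were enriched on magnetic columns and then sorted by flow cytometry. IRF8-GFP positive LMPP were compared with IRF8-GFP negative LMPP, on 2 arrays each.

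Both groups shared the rest of the gate, which was negative for lineage markers, IL-7R and CD150 and positive for Sca-1, CD117, CD34 and CD135. Both also shared the knockin, so no array of cells without the reporter was compared. The labels give no age, sex or number of mice, and they do not say whether the arrays labelled exp1 and exp2 came from separate animals. The p-values reflect the scatter among these arrays alone, and that scatter may be technical. All 4 arrays lay on 1 slide and had 1 scan time.

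The 2 positive arrays had 29631 and 30266 spots well above background, and the 2 negative arrays had 33506 and 33681, of 59305 gene spots each. Irf8 itself checked the labels: its log2 signal was 5.13 and 5.22 on the positive arrays and 1.64 and 1.60 on the negative arrays. That was 11.7-fold higher in positive LMPP (log2 difference 3.55, SE 0.06, limma adjusted p = 0.000802). Signals are log2 values relative to the 75th percentile of the same array, and a difference is positive minus negative LMPP. Signals of different probes cannot be compared as amounts of RNA, so only differences are set side by side between genes. Transcripts of the 4 positive markers of the gate (Kit, Flt3, Cd34 and Ly6a) and of the leukocyte gene Ptprc could all be tested. Of these 5, 2 rose (Cd34 and Flt3), 2 fell (Kit and Ly6a) and 1 did not pass, with a range of differences from -0.96 to 0.26. The median difference of everything tested was 0.16, and the 2 rises depended on the scaling. With quantile scaling, the spike-in controls and the authors' deposited matrix, 0 of the 5 were called as higher and 3 as lower. With cyclic loess and with normexp background correction, 0 were called as higher and 2 as lower.

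In mitosis, kinesins separate the spindle poles, move and align chromosomes, trim microtubule ends and organise the midzone where the cell divides. Another set of kinesins carries vesicles, organelles and ciliary components in cells at any stage of the cycle. At the centromere, CENP-A replaces histone H3 in the nucleosome and recruits an inner layer of CENP proteins, on which the microtubule-binding outer kinetochore is built. Transcripts of many mitotic kinesins and centromere genes are known to be highest late in the cell cycle, so their level in a sorted population follows the share of cycling cells as well as the level per cell. In RNA pooled from many cells, fewer cells of a kind and less RNA per cell cannot be told apart.

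All 10 mitotic kinesins that could be tested rose in IRF8-GFP positive LMPP, whereas only 2 of 11 transport kinesins did and 4 of 11 fell. All 16 genes of the inner centromere rose too, of which 14 stayed called with the spike-in controls. Over the 49 tested kinesin and Cenp genes, 35 rose, 6 fell and 8 did not pass an adjusted p of 0.05 (limma, Benjamini-Hochberg over all 22362 genes and unnamed transcripts tested). The background was large, because 59.9% of everything tested was called, 38.5% as higher and 21.4% as lower in positive LMPP. A call alone therefore says little about a gene. Among the 6 falls is that of Kif21a, which passed the filter on dim signals only through the negative arrays. A difference of at least 2-fold was less common, at 2.33% of all genes upward and 5.61% downward.

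**Figure D1:**
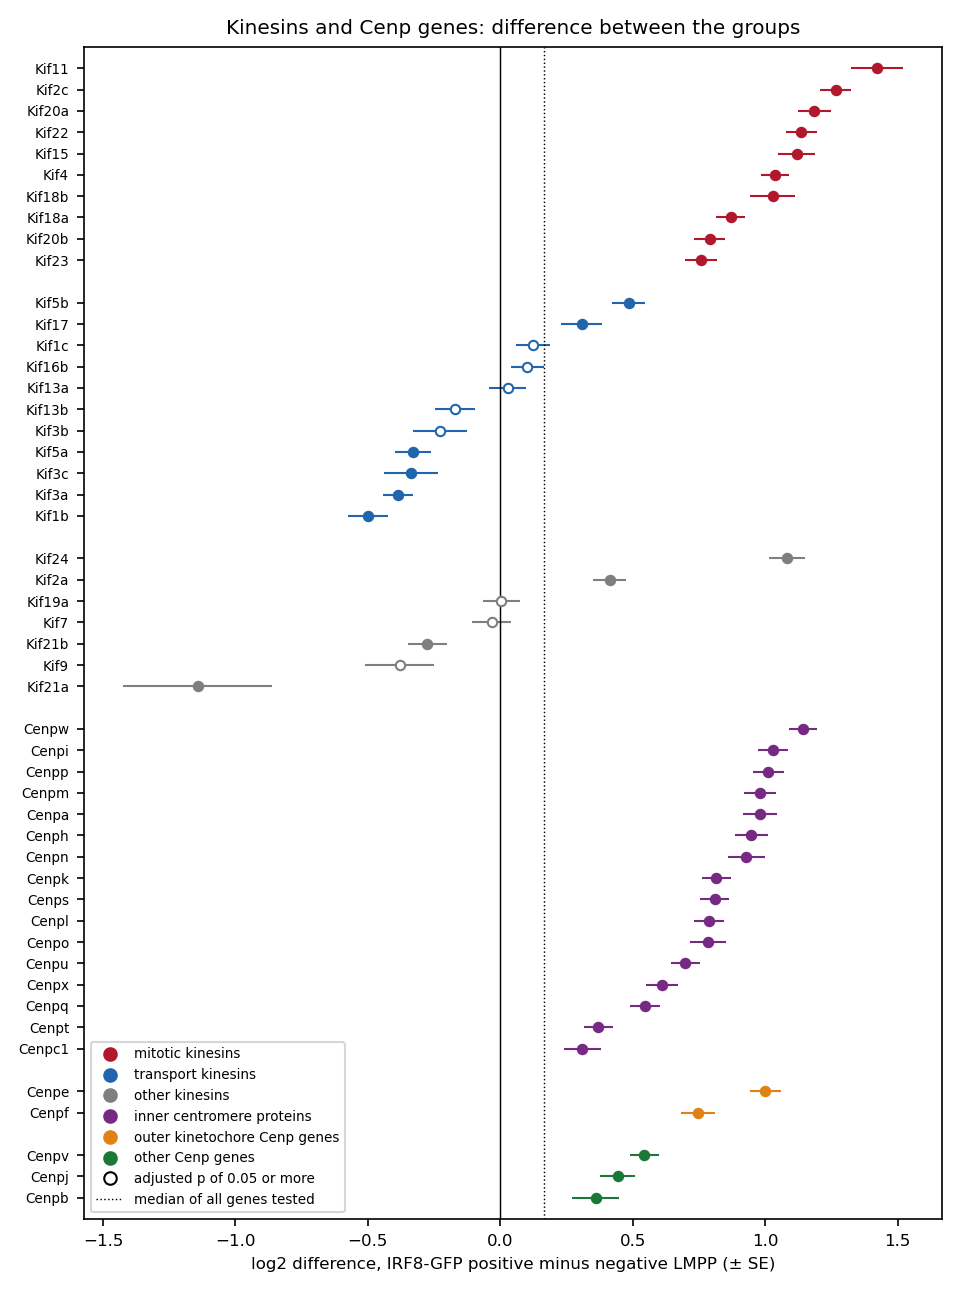
Log2 difference of each tested kinesin and Cenp gene (IRF8-GFP positive minus negative LMPP, horizontal axis, bars are the standard error from limma, 2 arrays per group), with genes grouped by role. All kinesins classed as mitotic lie to the right of every transport kinesin, and the dotted line marks the median of all genes tested, 0.16.

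The mitotic kinesins had a median log2 difference of 1.08, with a range of 0.76 to 1.42, against a median of 0.16 over all genes tested. In fold terms they were 1.69 to 2.68 times higher in positive LMPP, and 7 of 10 were at least 2-fold higher. For all 10 the groups did not overlap and the positive arrays were the higher ones. That was the case for 52.4% of all genes, while 29.8% were separated the other way and 82.2% in either direction. Adjusted p-values ran from 0.00144 to 0.00238. Of the 12 genes in this class, Kif14 had no probe matched by accession, and Kif2b, a relative of Kif2c, was below background on all 4 arrays.

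Kif11, the motor that slides antiparallel microtubules apart and so separates the spindle poles, differed most. Its log2 signal was 2.52 and 2.47 on the positive arrays and 0.96 and 1.19 on the negative arrays. The groups did not overlap, and positive LMPP were 2.68-fold higher (difference 1.42, SE 0.10, limma adjusted p = 0.00203). Kif15, which shares the task of keeping the spindle bipolar, read 0.36 and 0.44 on the positive arrays and -0.66 and -0.77 on the negative arrays. It was 2.17-fold higher in positive LMPP (log2 difference 1.12, SE 0.07, limma adjusted p = 0.00186), again with no overlap.

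Kif2c takes tubulin off microtubule ends and helps to correct faulty attachments at the centromere. Positive arrays gave 0.53 and 0.60 and negative arrays -0.69 and -0.70, so replicates lay close together and the groups far apart. It was 2.41-fold higher (difference 1.27, SE 0.06, limma adjusted p = 0.00144). The other length-controlling motors moved in the same direction. Kif18a, which dampens chromosome oscillations at the metaphase plate, was 1.83-fold higher, and Kif18b, which limits astral microtubules, was 2.04-fold higher.

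Chromokinesins bind chromosome arms. Kif22, which pushes the arms away from the poles, had 5.07 and 5.10 on the positive arrays and 3.91 and 3.98 on the negative arrays. Kif4, which acts in chromosome condensation and at the spindle midzone, had 1.54 on both positive arrays and 0.50 on both negative arrays. Neither gene's groups overlapped. Kif22 was 2.20-fold higher (difference 1.14, SE 0.06, limma adjusted p = 0.00159) and Kif4 was 2.05-fold higher (difference 1.04, SE 0.05, limma adjusted p = 0.00153).

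The cytokinesis motors gave both a large and the smallest differences of the class. Kif20a, which brings the chromosomal passenger complex to the midzone, read 3.87 and 3.83 on the positive arrays and 2.71 and 2.63 on the negative arrays. It was 2.27-fold higher in positive LMPP (difference 1.18, SE 0.06, limma adjusted p = 0.00160). Kif23, the motor of the centralspindlin complex, read 2.50 and 2.43 on the positive arrays and 1.68 and 1.74 on the negative arrays. Kif20b, which helps to complete abscission, read 3.44 and 3.42 on the positive arrays and 2.60 and 2.68 on the negative arrays. For both, every positive array was above every negative array, by 0.76 (SE 0.06, limma adjusted p = 0.00234) for Kif23 and by 0.79 (SE 0.06, limma adjusted p = 0.00220) for Kif20b.

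Many genes of the late cell cycle carry a short element near their start, the cell cycle genes homology region (CHR), which MuvB complexes bind, and CCAAT boxes, which NF-Y binds. RefSeq promoter windows (build GRCm38.p6, 250 bases before to 50 after the start) were found for 43 of the 49 tested genes. None was found for the mitotic kinesin Kif20a, the transport kinesins Kif5a, Kif5b and Kif13b, or for Kif19a and Kif21b. The windows were searched on both strands for the CHR letters TTTGAA, whose reverse is TTCAAA, and for the variant TTCGAA. They were searched separately for CCAAT, whose reverse is ATTGG. CHR and CCAAT letters overlap in the stretches below in Cenpw alone, where CCAAT runs into TTCAAA. CHR letters were present in 8 of 9 mitotic kinesin windows (88.9%), in 0 of 9 transport kinesin windows and in 19.2% of all 32851 promoter windows. The share was 14.3% among windows of tested genes. Within 30 bases of the start, a distance chosen after the matches were seen, it was 77.8% of the mitotic kinesin windows and 3.13% of all windows. The matches are shown because the 2 kinesin classes differ in them. Each line is written 5′ to 3′ along the strand of the gene, with the CHR letters in capitals.
Kif11 (chr19:37376351-37376380, plus strand): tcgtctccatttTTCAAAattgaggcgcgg
Kif15 (chr9:122951050-122951079, plus strand): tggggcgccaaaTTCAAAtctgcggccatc
Kif22 (chr7:127042420-127042449, minus strand): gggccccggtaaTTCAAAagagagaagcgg
Kif2c (chr4:117178858-117178887, minus strand): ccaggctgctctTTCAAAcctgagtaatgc
Kif23 (chr9:61946780-61946809, minus strand): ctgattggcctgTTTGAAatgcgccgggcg
Kif18b (chr11:102925104-102925133, minus strand): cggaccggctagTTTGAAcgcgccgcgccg
Kif20b (chr19:34922353-34922382, plus strand): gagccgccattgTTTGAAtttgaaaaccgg
Kif4 (chrX:100626072-100626101, plus strand): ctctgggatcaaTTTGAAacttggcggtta

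The match shown began at position -19 from the start in Kif11 and Kif15, at -17 in Kif22, at 3 in Kif23 and at 4 in Kif18b. Kif2c was apart from these, with its match at -103. Kif20b held 2 adjacent matches, the other written in lower case above. Kif15 and Kif22 each held a further match that is not shown, at -234 and -215. Kif18a, which was 1.83-fold higher, had no match in its window, and no match says only that these letters are not in this stretch. The part of these letters in the differences was not tested. CCAAT boxes separated the classes less, being in 5 of 9 mitotic windows (55.6%), 4 of 9 transport windows (44.4%) and 37.4% of all windows. The 9 transport windows belong to 8 genes, since Kif1b, which has CCAAT boxes, has more than 1 window. Windows with both motifs were 5 of the 9 mitotic windows (55.6%) and 5.98% of the windows of tested genes.

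The longer stretches below set the mitotic kinesin with the largest difference beside Kif17, a transport kinesin with neither motif, with CHR and CCAAT letters (or their reverse) in capitals.
Kif11 (chr19:37376232-37376381, plus strand): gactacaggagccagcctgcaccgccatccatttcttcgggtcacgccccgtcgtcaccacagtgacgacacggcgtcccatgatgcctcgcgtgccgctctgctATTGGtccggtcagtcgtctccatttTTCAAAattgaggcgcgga
Kif17 (chr4:138262101-138262250, plus strand): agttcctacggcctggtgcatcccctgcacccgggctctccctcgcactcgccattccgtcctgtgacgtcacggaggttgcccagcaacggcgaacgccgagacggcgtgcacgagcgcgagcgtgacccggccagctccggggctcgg

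Transport kinesins behaved unlike the mitotic class. Among 11 with a usable signal, 2 rose, 4 fell and 5 gave no call, their median difference was -0.17, and none differed 2-fold. Kif1a and Kif5c, the motors known mainly from neurons, were below background on all 4 arrays. These 6 calls of 11 lie near the background of calls in either direction, 59.9% of all genes.

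Kif5b, the heavy chain of conventional kinesin found in most cells, rose. It read -0.32 and -0.25 on the positive arrays and -0.74 and -0.81 on the negative arrays, with no overlap. It was 1.40-fold higher (difference 0.48, SE 0.06, limma adjusted p = 0.00566). Kif17, a kinesin of dendrites and cilia, read 0.83 and 0.89 on the positive arrays and 0.62 and 0.48 on the negative arrays, a difference of 0.31 (SE 0.08, limma adjusted p = 0.0297). It lost its call whichever array was left out, with adjusted p-values of 0.0549 to 0.132.

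Kif3a, a motor subunit of the heterotrimeric kinesin that carries ciliary cargo, fell. It read 0.54 and 0.59 on the positive arrays and 0.96 and 0.94 on the negative arrays, a difference of -0.39 (SE 0.06, limma adjusted p = 0.00745). Its partner subunits did not all pass. Kif3c read -0.69 and -0.76 on the positive arrays and -0.27 and -0.51 on the negative arrays, a difference of -0.34 (SE 0.10) just inside the threshold (limma adjusted p = 0.0498). Kif3b, the usual partner of Kif3a, had a difference of -0.23 (SE 0.10) and a limma adjusted p of 0.125.

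Kif1b, a carrier of mitochondria and synaptic vesicle precursors, read -0.88 and -0.73 on the positive arrays and -0.29 and -0.32 on the negative arrays. Kif5a, the neuronal heavy chain of conventional kinesin, read 0.63 and 0.73 on the positive arrays and 0.97 and 1.04 on the negative arrays. Neither overlapped, and the differences were -0.50 (SE 0.08, limma adjusted p = 0.00823) for Kif1b and -0.33 (SE 0.07, limma adjusted p = 0.0182) for Kif5a. The brightest probe decided both calls, since a second probe gave 0.07 for Kif1b and 0.19 for Kif5a. These second probes were dim, with log2 signals of -3.31 to -3.10 for Kif1b and -3.72 to -3.33 for Kif5a. Of 14 kinesin and Cenp genes with more than 1 kept probe, Kif1b, Kif1c, Kif3b and Kif5a were the 4 with probes of opposite sign. With 1 array left out, the highest adjusted p was 0.0571 for Kif1b, 0.0575 for Kif3a, 0.103 for Kif5a and 0.150 for Kif3c, so none of the 4 falls held in every such fit. The class had 1 call without the first negative array, 2 without the second and 3 without the first positive array, against 6 with all arrays.

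Kif1c, which moves vesicles, and Kif16b, which moves early endosomes, lay nearest to the median of all genes. Kif1c read 0.76 and 0.72 on the positive arrays and 0.67 and 0.56 on the negative arrays, and Kif16b read 0.78 and 0.79 on the positive arrays and 0.73 and 0.63 on the negative arrays. Their differences of 0.12 and 0.10 had adjusted p-values of 0.174 and 0.224 (limma). Kif1c had 3 kept probes, with differences of -0.03 to 0.90, and the probe at 0.90 was dim (log2 signals -4.02 to -2.70). With its probes averaged, Kif1c was called as higher (difference 0.33, limma adjusted p = 0.0384). Under that setting 3 transport kinesins were called as higher and 2 as lower. For Kif13a, a motor of endosomal cargo, the groups overlapped, at 2.21 and 2.29 on the positive arrays and 2.17 and 2.27 on the negative arrays. Kif13b, its relative, had a difference of -0.17 (SE 0.08, limma adjusted p = 0.122).

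**Figure D2:**
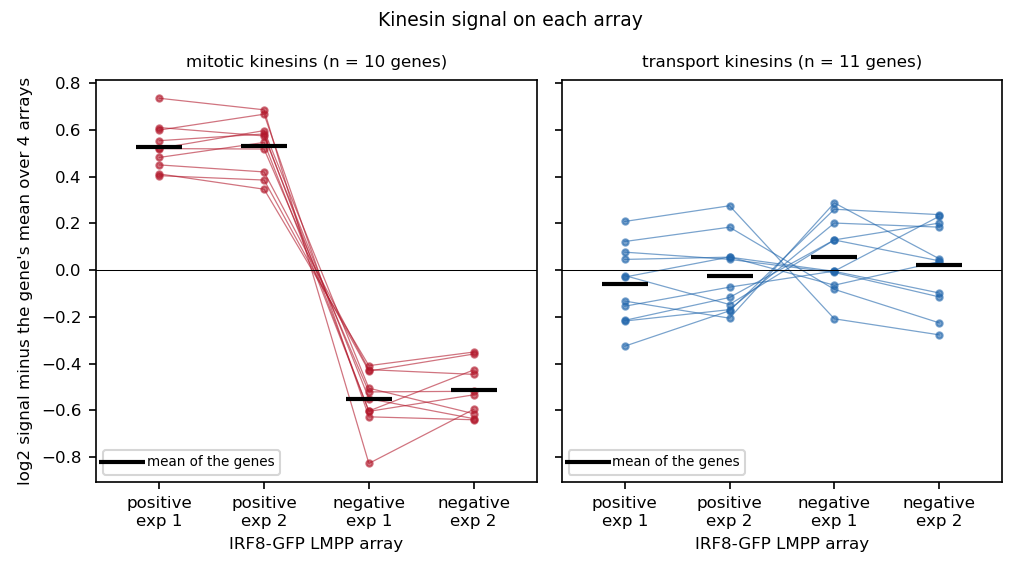
Signal of each mitotic (left) and transport (right) kinesin on each array, as log2 signal minus the same gene's mean over the 4 arrays; thin lines join 1 gene's values and black bars are class means. The mitotic mean was 0.53 on both positive arrays and -0.55 and -0.51 on the negative arrays, and the transport mean was -0.06 and -0.02 on the positive arrays and 0.06 and 0.02 on the negative arrays.

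The 2 arrays of a group gave like values for the contrast between the classes. Mean mitotic minus mean transport signal, each gene centred on its own mean over the 4 arrays, was 0.59 and 0.56 on the positive arrays and -0.61 and -0.54 on the negative arrays. The centring ties these 4 values to each other, so they are not 4 separate observations. With 2 arrays against 2, an exact permutation test cannot go below p = 0.333, so none is given for this value. The lowest mitotic difference, 0.76 for Kif23, lay above the highest transport difference, 0.48 for Kif5b. This separation depends on the classes as drawn. Kif2a, which also acts at spindle poles, was placed with the other kinesins, and its difference of 0.41 lay below that of Kif5b. With quantile scaling and with the authors' deposited matrix, 9 of the 10 mitotic kinesins lay above all transport kinesins. The gap between the class medians was 1.25, and it ran from 0.97 to 1.29 over the alternative settings.

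Signal strength moved with the differences and is shown beside them. With the tested genes ranked by mean signal and split into 4 equal groups, 67.1% of the brightest group were higher in positive LMPP and 7.85% lower. The second group had 44.6% higher and 19.8% lower, the third 24.5% higher and 31.8% lower, and the dimmest 17.8% higher and 26% lower. The mitotic kinesins lay in the brightest group in 3 cases, in the second in 4 and in the third in 3, so all 10 were higher where the background of higher calls was 24.5% to 67.1%. Of the transport kinesins, 6 lay in the second group, 4 in the third and 1 in the dimmest. The part of brightness in the difference between the classes was not tested.

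**Figure D3:**
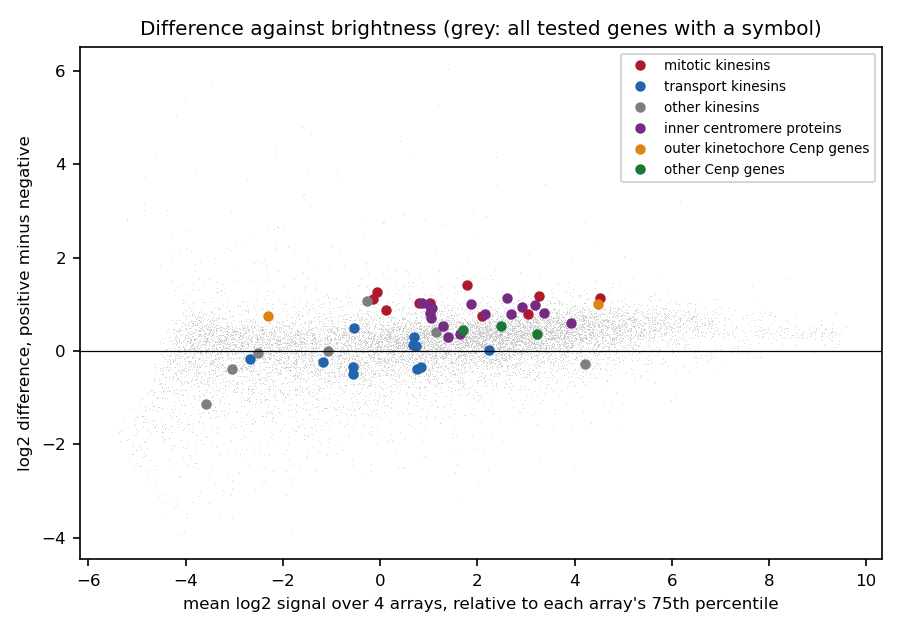
Log2 difference (IRF8-GFP positive minus negative LMPP, vertical axis) against mean log2 signal over the 4 arrays (horizontal axis); grey points are all tested genes with a symbol and coloured points are the kinesins and Cenp genes. Mitotic kinesins lie above transport kinesins, and the brightest of the 4 groups of genes holds 3 mitotic and 0 transport kinesins.

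Among the remaining kinesins, 2 rose, 2 were called as lower (Kif21b and Kif21a) and 3 did not pass. Kif24, a depolymerising kinesin of the centriole that restrains cilium growth, read 0.34 and 0.22 on the positive arrays and -0.80 and -0.81 on the negative arrays. Its groups lay apart by 1.08 (SE 0.07), or 2.12-fold (limma adjusted p = 0.00185), the size seen in the mitotic class. Its window held the variant CHR letters at position -26.
Kif24 (chr4:41464857-41464886, minus strand): tcggcgcgcgcgTTCGAActggcgcttgtg

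Kif2a, a microtubule depolymerase of spindle poles and neurons, rose by 0.41 (SE 0.06, limma adjusted p = 0.00833), with 1.35 and 1.39 on the positive arrays and 0.91 and 1.0 on the negative arrays. Its 3 probes gave differences of 0.11 to 0.41, and its call was lost without the first negative array (adjusted p = 0.0584, limma) and with the spike-in controls (difference 0.10, adjusted p = 0.195). Kif21b, a motor that limits microtubule growth, read 4.01 and 4.13 on the positive arrays and 4.31 and 4.38 on the negative arrays. This was a fall without overlap of -0.28 (SE 0.07, limma adjusted p = 0.0348), and its adjusted p reached 0.161 when 1 array was left out.

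Kif21a, its close relative, was not well above background on either positive array but was on both negative arrays. With its positive signals set no lower than the dimmest signal above background on the same array, Kif21a was 1.86-fold lower in positive LMPP. That floor comes from other probes, so it is not a detection limit of this probe. It passed the filter only through the group where it is high, so its limma adjusted p of 0.0291 rests on positive signals not above background and its call is not read as support. The call was lost with normexp background correction, where the difference was -0.10, and its adjusted p reached 0.121 when 1 array was left out. Its measured log2 signals were -3.82 and -4.51 on the positive arrays and -2.83 and -3.21 on the negative arrays. Kif19a, which trims ciliary microtubules, and Kif7, which acts in Hedgehog signalling at the cilium, overlapped between the groups, with differences of 0.00 (SE 0.07) and -0.03 (SE 0.07). Kif9, a kinesin of motile cilia, had a difference of -0.38 (SE 0.13, limma adjusted p = 0.0676). Its 4 kept probes gave differences of -0.65 to -0.26. Kif9 was called as lower with its probes averaged (difference -0.43, limma adjusted p = 0.00579) and with the spike-in controls (limma adjusted p = 0.0128). With normexp background correction its difference was 0.08 and not called. Kif6 was above background on 1 array, and Kif12, Kif26a, Kif26b, Kif27 and the pseudogene Kif4-ps on none.

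The Cenp genes formed the more uniform family, as all 21 rose with the scaling used above. The 16 inner centromere genes had a median log2 difference of 0.81 and a range of 0.31 to 1.14, and 3 of them were at least 2-fold higher. The groups were separated upward for all 16, against 52.4% of all genes. By brightness, 12 of the 16 lay in the second of the 4 groups and 4 in the brightest, where 44.6% and 67.1% of genes were higher. With the spike-in controls, 14 of the 16 were called as higher, as were Cenpe, Cenpf and 1 of the 3 other Cenp genes. The calls lost were those of Cenpt (difference 0.06, limma adjusted p = 0.423), Cenpc1 (0.0013, 0.988), Cenpj (0.13, 0.144) and Cenpb (0.05, 0.625).

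Cenpa encodes the histone H3 variant that marks the centromere. Its log2 signal was 3.64 and 3.70 on the positive arrays and 2.66 and 2.73 on the negative arrays. The groups did not overlap, and positive LMPP were 1.97-fold higher (difference 0.98, SE 0.06, limma adjusted p = 0.00187). Cenpc1, whose protein links that nucleosome to the outer kinetochore, differed least in the class, with 1.54 and 1.57 on the positive arrays and 1.18 and 1.31 on the negative arrays. This was a difference of 0.31 (SE 0.07, limma adjusted p = 0.0234), which reached an adjusted p of 0.109 when 1 array was left out.

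Cenpw, Cenpt, Cenps and Cenpx encode histone-fold partners that bind centromeric DNA together, and they spanned nearly the whole range of the class. Cenpw had the largest difference, with 3.19 on both positive arrays and 2.05 on both negative arrays, or 2.21-fold (difference 1.14, SE 0.05, limma adjusted p = 0.00144). Cenpt, its direct dimer partner, read 1.84 on both positive arrays and 1.44 and 1.49 on the negative arrays. Both were without overlap, but the difference of Cenpt was 0.37 (SE 0.06, limma adjusted p = 0.00813), and its adjusted p reached 0.0619 when 1 array was left out. Cenps and Cenpx lay between them, at 0.81 and 0.61.

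The subunits encoded by Cenph, Cenpi, Cenpk and Cenpm form a module that ties the inner layer together, and their differences lay close to each other. Cenpi read 1.35 and 1.39 on the positive arrays and 0.36 and 0.32 on the negative arrays, or 2.04-fold (difference 1.03, SE 0.06, limma adjusted p = 0.00166). Cenpm read 1.48 and 1.52 on the positive arrays and 0.48 and 0.55 on the negative arrays, or 1.97-fold (difference 0.98, SE 0.06, limma adjusted p = 0.00181). Cenph and Cenpk differed by 0.95 and 0.82, and no gene of the module had overlapping groups.

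Cenpn and Cenpl, whose proteins recognise the CENP-A nucleosome as a pair, differed by 0.93 and 0.79. In the remaining module the differences were 1.01 for Cenpp, 0.78 for Cenpo, 0.70 for Cenpu and 0.55 for Cenpq. Cenpp read 2.35 and 2.41 on the positive arrays and 1.39 and 1.35 on the negative arrays (2.02-fold, SE of the log2 difference 0.06, limma adjusted p = 0.00173). Cenpu, which docks the kinase Plk1, had a second probe with a difference of 0.23.

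Cenpe and Cenpf act at the outer face of the kinetochore. Cenpe is itself a kinesin that carries chromosomes towards the metaphase plate, and it read 4.96 and 4.99 on the positive arrays and 3.95 and 4.0 on the negative arrays. Its difference of 1.0 (SE 0.06), or 2.0-fold (limma adjusted p = 0.00172), falls within the range of the mitotic kinesins. Cenpf, a large corona protein that binds dynein adaptors, read -1.98 and -1.89 on the positive arrays and -2.71 and -2.66 on the negative arrays. It was 1.68-fold higher (difference 0.75, SE 0.06, limma adjusted p = 0.00261), again with no overlap.

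The 3 other Cenp genes, which belong neither to the inner layer nor to the outer face, differed by 0.36 to 0.54. Cenpv, which acts at the central spindle, read 2.76 and 2.74 on the positive arrays and 2.19 and 2.22 on the negative arrays. Cenpj, which sets centriole length, read 1.93 on both positive arrays and 1.43 and 1.54 on the negative arrays. Cenpb, which binds a short box in centromeric satellite DNA, read 3.30 and 3.50 on the positive arrays and 3.07 and 3.02 on the negative arrays. None overlapped, and the differences were 0.54 for Cenpv (SE 0.05, limma adjusted p = 0.00324), 0.44 for Cenpj (SE 0.07, limma adjusted p = 0.00766) and 0.36 for Cenpb (SE 0.09, limma adjusted p = 0.0291). A second Cenpb probe gave 0.04. With 1 array left out, the adjusted p reached 0.134 for Cenpb and 0.0521 for Cenpj.

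**Figure D4:**
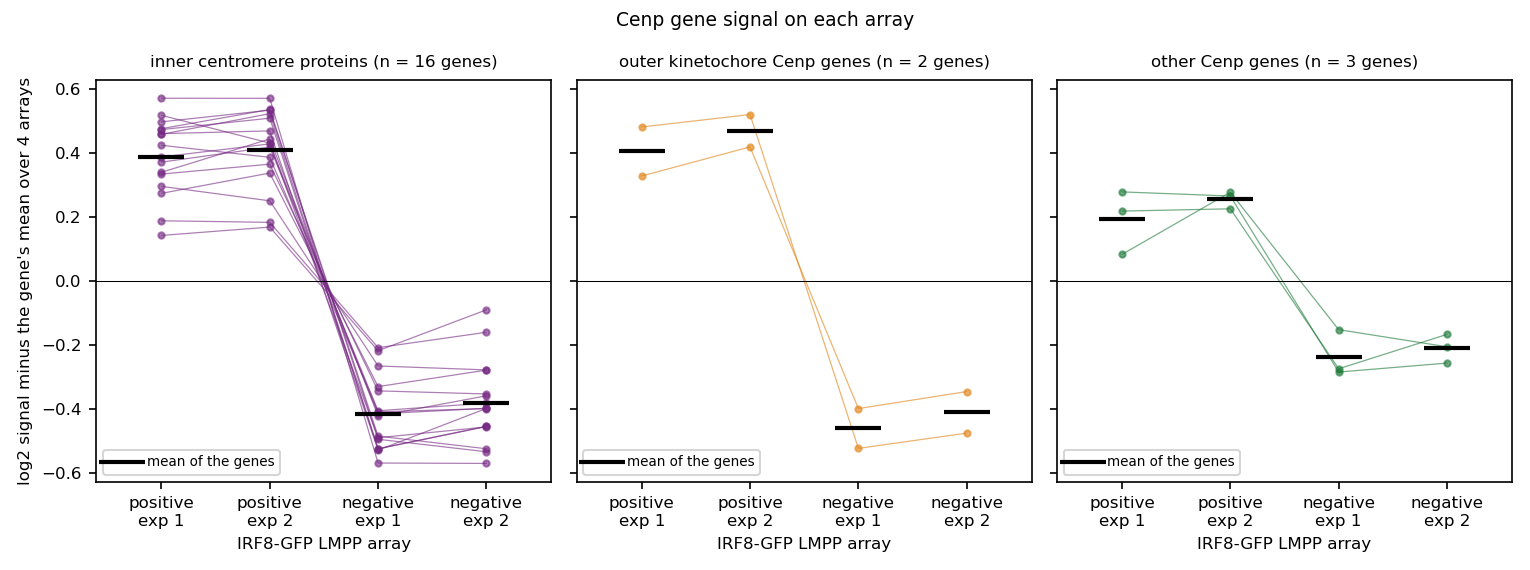
Signal of each tested Cenp gene on each array, as log2 signal minus the same gene's mean over the 4 arrays, for inner centromere genes (left), Cenpe and Cenpf (middle) and the 3 other Cenp genes (right); black bars are class means. The inner centromere mean was 0.39 and 0.41 on the positive arrays and -0.42 and -0.38 on the negative arrays.

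CHR letters were in 5 of 19 windows of inner centromere genes (26.3%), against 19.2% of all windows and 14.3% of those of tested genes. Within 30 bases of the start the share was 15.8% in this class, against 3.13% of all windows and 2.28% of those of tested genes. Both motifs were in 26.3% of its windows, against 5.98% of those of tested genes. CCAAT boxes were in 15 of the 19 (78.9%), against 37.4% of all windows. The 19 windows belong to 16 genes, since Cenpk and Cenpx, which have CCAAT boxes, have more than 1 window each. The stretches of genes with a match near the start, shown for comparison with the kinesins above, again have the CHR letters in capitals.
Cenpa (chr5:30666890-30666919, plus strand): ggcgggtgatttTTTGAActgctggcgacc
Cenpw (chr10:30200548-30200577, minus strand): tccggcggccaaTTCAAAtcgaccactcgg
Cenpn (chr8:116921719-116921748, plus strand): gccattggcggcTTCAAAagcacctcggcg
Cenpf (chr1:189688067-189688096, minus strand): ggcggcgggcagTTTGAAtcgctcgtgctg

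Partners of these proteins were followed through lists of related genes. All 5 genes that load CENP-A or belong to the inner layer under other names rose, with a median of 0.78, among them Oip5 (1.94-fold), which helps to mark centromeres for new CENP-A. Leaving out either negative array or the second positive array left 3 of these 5 called. Quantile scaling, cyclic loess, the spike-in controls and the authors' deposited matrix also gave 3 of the 5 as higher. With a gene's probes averaged, 4 were called as higher and 1 as lower. All 25 tested outer kinetochore and spindle checkpoint genes rose, with a median of 0.96. Examples are Sgo2a, a protector of cohesion (2.42-fold), Nuf2, a subunit of the microtubule-binding Ndc80 complex (2.41-fold), and Bub1, a checkpoint kinase (2.34-fold). Of 18 genes of the passenger complex and spindle, 17 rose. Aurkb, the kinase of the passenger complex, was 3.22-fold higher, Plk1 was 2.70-fold higher and Aurka 2.48-fold higher. By brightness, 14 of the 18 passenger complex and spindle genes lay in the brightest group, where 67.1% of genes were higher. Of the 25 outer kinetochore and checkpoint genes, 6 lay in the brightest group and 13 in the second. All 5 genes of the loading list lay in the second group, where 44.6% were higher.

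Transport partners did not move as a group, as with the transport kinesins. Of 30 tested genes for kinesin light chains, cargo adaptors and dynein, 9 rose, 6 fell and 15 did not pass, and the median was 0.11. The counts moved with the arrays and the scaling, to 4 higher without the first negative array, 5 higher without the second, and 3 higher and 14 lower with the spike-in controls. The largest changes were falls. Klc3, a kinesin light chain, was 2.58-fold lower in positive LMPP, Kifc2, a minus-end kinesin, 2.32-fold lower, and Bicd1, a dynein adaptor, 1.67-fold lower. These were limma calls with adjusted p-values of 0.00144, 0.00141 and 0.00466.

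Genes of the cell cycle outside both families also rose in positive LMPP. All 16 tested S phase genes rose, with a median of 0.78, including Ccne1, which drives entry into S phase (3.03-fold), and the ribonucleotide reductase genes Rrm2 (2.49-fold) and Rrm1 (2.09-fold). All 15 G2 and M phase genes rose, with a median of 1.01, including Ube2c (2.73-fold), Cdk1 (2.42-fold) and Ccnb1 (2.37-fold). Over everything tested, 38.5% was higher. By brightness, 11 of the 16 S phase genes and 11 of the 15 G2 and M phase genes lay in the brightest group, where 67.1% were higher. With quantile scaling, 14 S phase genes (median 0.42) and 12 G2 and M phase genes (median 0.84) were called as higher. The part of the share of cycling cells in the kinesin and centromere differences was not tested.

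Markers of other cell types moved too. Of 7 tested monocyte markers 5 rose and 1 fell, and their summed signal was 87.2 and 89.8 on the positive arrays and 35.6 and 31.2 on the negative arrays. Of 5 tested neutrophil markers 2 rose, 1 fell and 2 did not pass, with a median difference of -0.09, while their summed signal was 618 and 545 on the positive arrays and 200.1 and 205 on the negative arrays, with Ltf, Ngp and Mmp8 not well above background. Of 6 tested erythroid and megakaryocyte markers 5 fell, with sums of 2.40 and 2.53 on the positive arrays and 6.19 and 6.47 on the negative arrays. Of 4 tested B lineage markers 2 rose and 2 did not pass, and the sums were 14.9 and 14.6 on the positive arrays and 11.6 and 11.0 on the negative arrays, with Pax5 and Ebf1 not above background. Of 5 tested T and NK markers 2 rose, 1 fell and 2 did not pass, and the sums were 59.7 and 59.1 on the positive arrays and 55.5 and 56.5 on the negative arrays, without Cd3g, Cd8a or Ncr1. Of 7 tested stroma and endothelium markers 1 rose, 3 fell and 3 did not pass, with a median difference of -0.11. Their sums were 21.9 and 17.3 on the positive arrays and 16.7 and 14.5 on the negative arrays, without Cdh5. Where signal above background was required on all arrays, 5 of these markers remained, 1 called as higher and 2 as lower. The part of all these cell type markers in the kinesin and Cenp differences was not tested.

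The scaling of the arrays and their background correction moved the class medians, not always in the same direction. The median of all genes was 0.16 with the 75th percentile and -0.14 with the spike-in controls, under which 7 transport kinesins fell and both called rises of that class were lost (Kif5b at 0.18, adjusted p = 0.0896, limma, and Kif17 at -0.0016). All 10 mitotic kinesins stayed called as higher in every alternative setting, with a highest adjusted p of 0.0297 (limma). The median of the mitotic class ran from 0.77 with the spike-in controls to 1.08, and that of the transport class from -0.48 with the spike-in controls to -0.04 with another background correction.

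**Figure D5:**
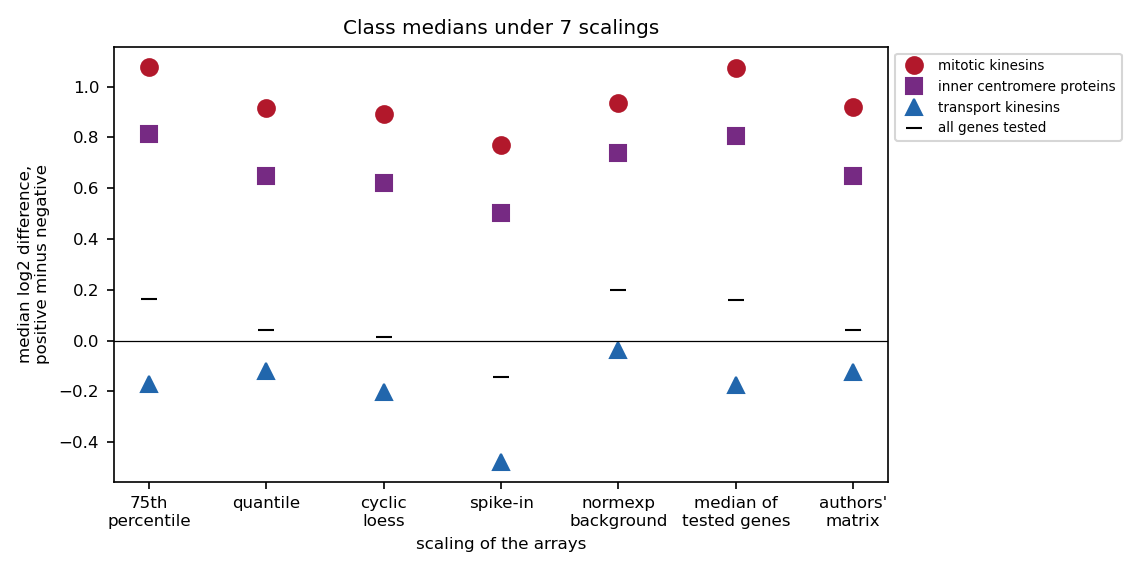
Median log2 difference (IRF8-GFP positive minus negative LMPP, vertical axis) of the mitotic kinesins, inner centromere genes, transport kinesins and all genes tested under 7 ways of scaling the arrays or correcting their background. The order of the classes was the same under all 7, and with the spike-in controls the medians were 0.77, 0.50, -0.48 and -0.14.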

How the data were processed

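RNA of 4 samples was hybridised to 4 one-colour Agilent mouse arrays. The deposited scanner files hold processed intensity values that the authors obtained with Agilent Feature Extraction 10.7.3.1, with background subtraction and detrending on each array and no normalization between arrays, per the file headers. The authors' deposited matrix holds linear intensity values with the same sorted values in all 4 columns (median 31.9), ranked as the processed signals, and served as an alternative; the sources used here do not give its centring. Control spots and outlier spots were left out; no spot was saturated.

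Each array's 75th percentile was subtracted from its log2 signals. Probes well above background on both arrays of a group were kept (30478 of 55669), and the brightest kept probe stood for a gene. Gene names came from RefSeq accessions, 26756 probes having 1 symbol. Positive and negative arrays were compared with limma 3.58.1 in R 4.3.3 (lmFit, eBayes), with Benjamini-Hochberg adjustment over 22362 genes and unnamed transcripts and a threshold of 0.05. The scripts were tested on simulated data. The number of arrays limits the precision.

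The members, role classes and lists were chosen with earlier results of these data known. Named genes are the up to 5 called members of each class with the largest differences, the 2 nearest to the median of all genes, up to 3 from each related list, and Irf8. Kif4, Kif18a, Kif18b, Kif13a, Kif3b, Kif6, Kif27 and the other members named with a difference alone were added after their values were seen. In all, 16 alternatives were run: normalization, background correction, the filter, probe choice, the threshold, leaving out each array, and the replicate number as a block.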

Additional observations from a re-analysis of the deposited data

Results flagged for a closer look

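A second probe of Kif7, which the filter on dim probes left out of every comparison above, had a processed signal of 4.92 and 156797 on the positive arrays and 4.26 and 7.64 on the negative arrays. The single bright spot carried no outlier mark, and the signal of this probe on 1 positive array is above its level on both negative arrays. The probe of Kif7 used in the comparison overlapped between the groups.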

How the results depend on the processing

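Of the 41 called kinesin and Cenp genes, 28 kept their direction and call under all 16 alternatives, and 40 never changed direction. The replicate number as a block gave 10 mitotic and 16 inner centromere genes higher, 1 transport kinesin higher and 4 lower. The labels do not say that the numbers pair the arrays (correlation of deviations 0.0971). Under the block 13946 genes were called; Kif17 lost its call (adjusted p 0.0517, limma) and Kif9 gained one (0.0206). With 1 array left out, transport calls ran from 1 to 4, the inner centromere median from 0.81 to 0.84, and all calls from 7612 without the first negative array and 7723 without the second to 12774. At an adjusted p of 0.01, 7861 genes and 3 transport kinesins were called. The mitotic median was 0.93 with normexp, 0.92 with quantile scaling and the deposited matrix, 0.89 with loess and 0.77 with the spike-in controls; the inner centromere median was 0.74, 0.65, 0.65, 0.62 and 0.50 in the same order, and the transport median was -0.036 with normexp, -0.48 with the spike-in controls and -0.012 with probes averaged. Cenpc1 and Cenpb lost their calls under quantile scaling, loess, the spike-in controls and the matrix. Cenpt and Cenpj lost theirs under the spike-in controls.

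Calls over all genes split as 8611 higher and 4779 lower, against 6059 and 5466 with quantile scaling, 5471 and 5776 with loess, 3299 and 8102 with the spike-in controls, 6035 and 5487 with the matrix and 10025 and 3582 with normexp. Directions turned for Kif17 (-0.0016, spike-in controls), Kif1c (-0.18, spike-in controls), Kif16b (-0.21, spike-in controls) and Kif13b (0.13, normexp). They also turned for Kif9 (0.083, normexp), Kif19a (-0.30, spike-in controls; -0.0017, median centring; -0.061 and -0.0012 with an array left out, where the range was -0.061 to 0.068) and Kif7 (0.15, normexp; 0.093, quantile scaling; 0.092, the matrix; 0.0078 and 0.027 with an array left out, where the range was -0.092 to 0.027). Kif13a gave -0.036 with normexp, -0.18 with quantile scaling and the matrix, -0.28 with the spike-in controls, -0.20 with loess and -0.023 to 0.078 with an array left out. The causes were not tested.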
